A study of Mus musculus with 18 samples.

Results

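The genes described here encode the lysosome and its proton pump in the embryonic mouse lower jaw. The set was given as a list of 36 gene symbols, and each symbol matched exactly 1 of the 38243 Ensembl genes counted in every library. Of the 36 genes, 17 encode subunits or accessory proteins of the vacuolar-type proton pump (V-ATPase) and 19 encode other lysosomal proteins. The latter are 7 enzymes, 3 genes of enzyme sorting, 8 proteins of the membrane or of ion and lipid transport, and the transcription factor gene *Tfeb*. Before testing, 35 of the 36 passed a filter on low values, and *Tfeb* did not.

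RNA was measured in 18 libraries, 1 each of mandibular bone, Meckel's cartilage (MC) and mandibular condylar cartilage from 6 female C57BL/6 embryos at embryonic day 16.5 (E16.5). Of the 6 groups, 3 came from *Fgfr2*+/S252W embryos, a model of Apert syndrome that carries 1 mutant copy of the fibroblast growth factor receptor gene *Fgfr2*. The other 3 groups came from *Fgfr2*+/+ littermates, and each group held 3 embryos. Tissues were cut from frozen sections by laser capture microdissection, so each library holds the RNA of all cells within the captured area. MC is the rod of cartilage beside which the jaw bone forms, and the condylar cartilage caps the growing jaw joint.

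The V-ATPase is built of a membrane sector, V0, which conducts protons, and a cytosolic sector, V1, which hydrolyzes ATP to drive them. It acidifies lysosomes in every cell, and osteoclasts, the cells that resorb bone, also place it in the ruffled border that faces the bone surface. The a3 subunit, encoded by *Tcirg1*, and the d2 subunit, encoded by *Atp6v0d2*, are the isoforms best known from osteoclasts, whereas a1 (*Atp6v0a1*) and d1 (*Atp6v0d1*) are broadly expressed. Most soluble lysosomal enzymes reach the organelle through a mannose 6-phosphate tag made by the phosphotransferase of *Gnptab* and *Gnptg* and read by receptors such as that of *M6pr*.

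Library totals ranged from 8218548 to 15585778 fragments on genes (median 10581032). Levels below are CPM values, that is counts scaled to library size, with TMM factors (normalized counts), and levels are compared between genes only per kilobase of exon (FPKM). Summed osteoblast markers were 28332 to 61686 normalized counts in bone, 2739 to 6032 in MC and 7521 to 27283 in condylar cartilage. Summed chondrocyte markers were 33570 to 43704 in condylar cartilage and 425 to 9921 in MC. The *Fgfr2*+/+ MC library of replicate 1 had the lowest chondrocyte sum and stood apart. It held 212 normalized counts of the cartilage collagen gene *Col2a1*, against 1563 to 7201 in the other 5 MC libraries, and 230 of the bone matrix gene *Ibsp*, against 1.87 to 9.63. The main counts for MC are therefore also given without it. *Fgfr2* itself did not pass the genotype test in any tissue, and its log2 difference in bone was -0.02 ± 0.23 (SE) with an adjusted p of 0.995 by limma. Gene counts do not read the point mutation and so do not check the genotype.

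The promoters of several members hold the palindrome TCACGTGA, the core of the CLEAR element bound by TFEB and its relatives. RefSeq promoter windows on GRCm38.p6, from 250 bases before to 50 after each start site, were given for 28 of the 36 members. The 8 letters stood in the windows of 8 of the 28 members (28.6%) and of 1.12% of 27025 genes with a window. The shorter CACGTG, which lies inside it, stood in 12 of the 28 (42.9%) and in 8.09% of all genes. The longer palindrome with a further G before and C after it stood in 0 of the 28 and in 0.37%. In a wider list of 78 lysosomal and V-ATPase genes that are not members, 62 had a window. There 3 genes held the 8 letters (4.84%), 13 the shorter form (21%) and 2 the longer form (3.23%). Both strands were searched, which for palindromes give the same match. The 6 matches below are shown because their genes come from both pump sectors, the enzymes, enzyme sorting and the membrane proteins. Each line gives 11 bases on both sides of the match, on the gene's strand, with the match in capitals:
*Atp6v0d1* (chr8:105566050-105566079, minus strand): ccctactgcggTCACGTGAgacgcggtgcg
*Atp6v1a* (chr16:44139373-44139402, minus strand): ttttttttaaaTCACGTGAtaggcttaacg
*Ctsd* (chr7:142387908-142387937, minus strand): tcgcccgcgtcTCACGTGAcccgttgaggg
*Gnptg* (chr17:25240120-25240149, minus strand): ccggctgtcacTCACGTGAccgtgagaccc
*Clcn7* (chr17:25133386-25133415, plus strand): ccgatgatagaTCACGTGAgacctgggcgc
*Mcoln1* (chr8:3500462-3500491, plus strand): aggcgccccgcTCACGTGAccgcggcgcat
The match began 132 bases before the start site in *Atp6v1a*, 99 in *Ctsd* and 46 in *Mcoln1*, and within 7 bases of a start site in *Atp6v0d1*, *Gnptg* and *Clcn7*. *Atp6v0e* and *Ctsa* also held it. A match is a description of the letters and not of binding.

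The first question was how the genes differ between the captured tissues. Most were higher in bone than in either cartilage, with both genotypes averaged and the embryo as a block. Against MC, 29 of the 35 tested members were higher in bone and 1 was lower at an adjusted p below 0.05 by limma, where 25.9% of all 11469 genes tested were higher and 25.3% lower. Against condylar cartilage, 25 members were higher and 4 lower, where 24.3% of all genes were higher and 22.5% lower. The median log2 difference of the members was 1.16 against MC and 0.91 against condylar cartilage, and that of all genes tested was 0.00 in both. Without the MC library that stood apart, 28 members were higher in bone than in MC and 30 differed in all. Over all genes 28.1% were higher and 53.9% differed there. These are captured areas, so a smaller number of cells of one type and less RNA per cell cannot be told apart.

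Markers of several cell types differed in the same comparisons. All 7 osteoclast markers tested of 11 listed were higher in bone than in MC and in condylar cartilage, with median log2 differences of 3.68 and 5.10. Their summed level was 992 to 2564 normalized counts in bone, 145 to 353 in MC and 80.1 to 155 in condylar cartilage. The 5 endothelial markers tested were also higher in bone than in both, with medians of 1.88 and 3.91. Of the 5 macrophage markers tested, 3 were higher and 2 lower than in MC, and 5 were higher than in condylar cartilage. *Gm42418*, a gene that overlaps ribosomal RNA sequence, took 5.6 to 9.3% of fragments in bone, 24.1 to 39.4% in MC and 10.9 to 20.2% in condylar cartilage, without overlap. The part of these cells and of this RNA in the tissue differences was not tested.

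**Figure D1:**
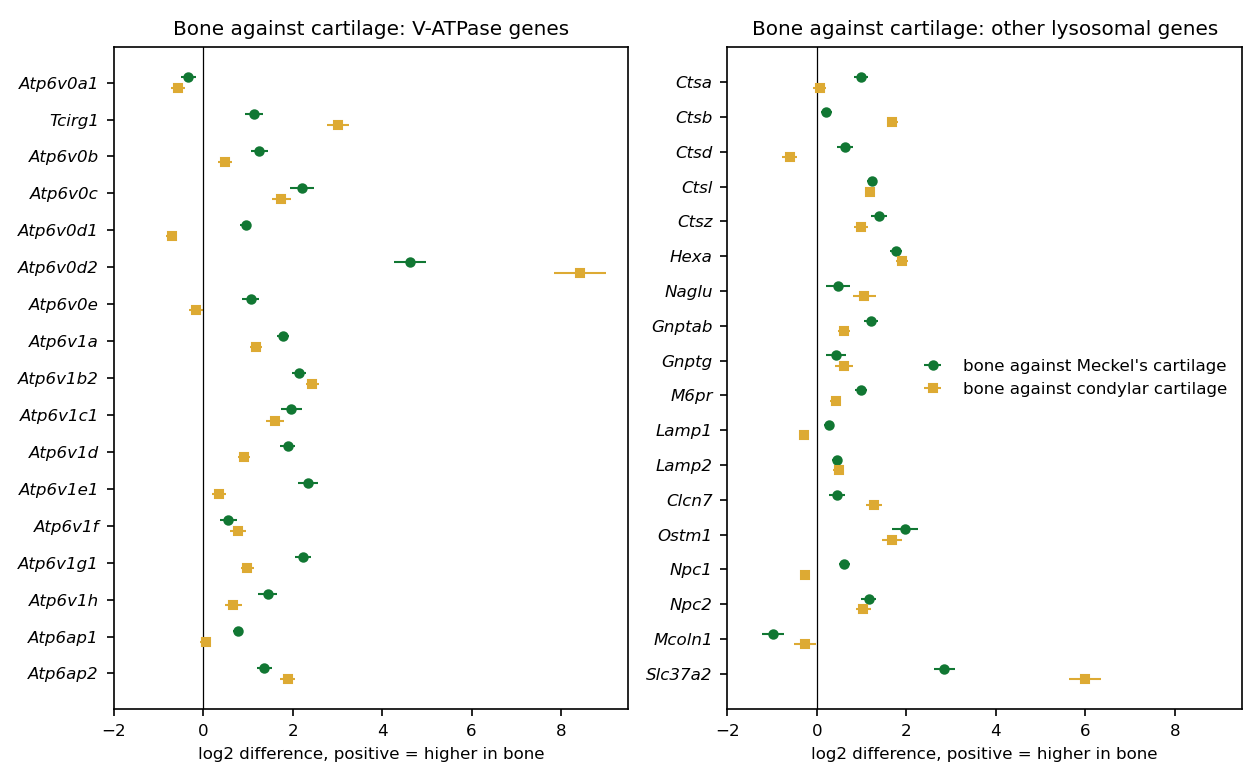
Log2 difference in level between bone and each cartilage for the 35 tested members (x axis, positive where bone was higher, bars are the SE from the limma fit, 6 embryos), with V-ATPase genes on the left and other lysosomal genes on the right. *Atp6v0d2* and *Slc37a2* lie farthest to the right, and *Mcoln1* is the member that passed as lower in bone than in MC. *Atp6v0a1* also lies left of 0 against MC (-0.33) but did not pass.

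*Atp6v0d2*, the d2 subunit of the V0 sector (chr4:19876841-19922605, GRCm38), showed the largest contrast between tissues of any member. It held 123 to 281 normalized counts in the 6 bone libraries, with a median of 178, and 1.74 to 33.6 in MC, with a median of 6.25. In condylar cartilage it held 0.201 to 0.997 normalized counts, which were 3 to 12 fragments per library. The ranges of the 3 tissues did not overlap, and the highest MC value was that of the library that stood apart. The log2 difference was 4.63 ± 0.36 (SE) against MC, with an adjusted p of 4.21e-08 by limma, and 5.30 ± 0.28 without that library. It was 8.42 ± 0.58 against condylar cartilage, with an adjusted p of 3.07e-09.

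*Tcirg1*, the a3 subunit (chr19:3896050-3907133), was also higher in bone. Its 6 bone libraries held 35.7 to 84.1 normalized counts (median 58.9), the MC libraries 16.3 to 34.1 (median 27) and the condylar libraries 4.28 to 13.5 (median 7.92). No range overlapped another. The log2 difference of bone was 1.14 ± 0.21 (SE) against MC and 3.01 ± 0.24 against condylar cartilage, with adjusted p-values of 0.000297 and 1.98e-08 by limma.

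The broadly expressed isoforms did not share this order. *Atp6v0a1* held 16.7 to 23.4 normalized counts in bone, 13.8 to 32.9 in MC and 26.8 to 34.8 in condylar cartilage. Bone was lower than condylar cartilage by a log2 difference of -0.56 ± 0.16 (SE), with an adjusted p of 0.00831 by limma, and the difference from MC (-0.33 ± 0.17) did not pass. Without the MC library that stood apart it did, at -0.51 ± 0.16 with an adjusted p of 0.0108. *Atp6v0d1* held 55 to 63.4 normalized counts in bone, 21.9 to 38.1 in MC and 86.7 to 116 in condylar cartilage, so that the 3 ranges were apart with condylar cartilage on top. Its log2 difference of bone was 0.95 ± 0.13 against MC and -0.70 ± 0.12 against condylar cartilage, and both passed. Of the other V0 genes, *Atp6v0b*, *Atp6v0c* and *Atp6v0e* were higher in bone than in MC, by 1.06 to 2.21 on the log2 scale. *Atp6v0b*, part of the proteolipid ring, had 1 of the smallest differences from condylar cartilage that passed (0.49 ± 0.16), with 34.1 to 50.2 normalized counts in bone and 22.3 to 39.2 there, which overlapped.

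Isoform shares put these values on 1 scale. The share of *Tcirg1* was taken from the summed FPKM of the a-subunit genes a1, a2, a3 and a4, and that of *Atp6v0d2* from the sum of d1 and d2. In bone *Tcirg1* made up 42.7, 44.7 and 48.1% of a-subunit transcripts in the 3 *Fgfr2*+/+ libraries and 60.8, 56.8 and 53.7% in the 3 *Fgfr2*+/S252W libraries. Across the 6 embryos its mean share was 51.1% for bone, 30.1% for MC and 7.51% for condylar cartilage. *Atp6v0d2* made up 65% of d-subunit transcripts for bone, 13.8% for MC and 0.356% for condylar cartilage. The MC library that stood apart held 38.6% and the other 5 held 4.54 to 14.8%, with a mean of 8.82%. Without its embryo the *Atp6v0d2* share of condylar cartilage was below that of MC by a difference of -8.47 percentage points, against -13.4 with all embryos, and bone was above MC by 57.9 points, against 51.2. Both shares had the order bone, MC, condylar cartilage in each of the 6 embryos. Each of the 6 tissue comparisons reached 0.0312 by an exact two-sided paired permutation test, the smallest p that 6 embryos allow, and 0.0625 after adjustment over 12 share comparisons. The pairing by embryo was inferred from the replicate numbers, and without it each unadjusted p was 0.00216 by an exact two-sided permutation test, the smallest that 6 against 6 libraries allow. That test was not planned, and it treats the tissues of 1 embryo as independent.

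**Figure D2:**
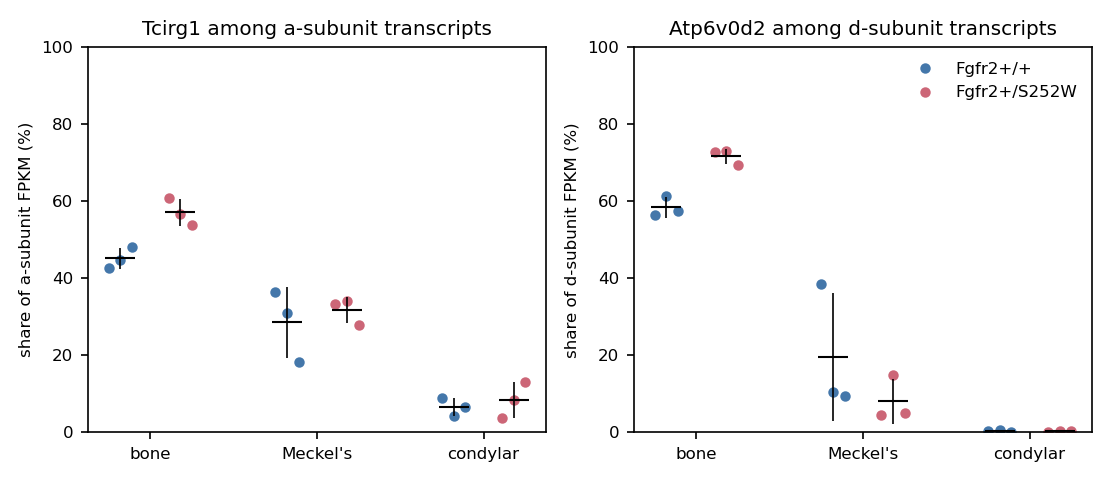
Share of *Tcirg1* among a-subunit transcripts (left) and of *Atp6v0d2* among d-subunit transcripts (right) in each library, as percent of summed FPKM, by tissue and genotype; black bars are the mean and SD of 3 embryos. The bone libraries lie above 40% in both panels, the condylar libraries below 14%, and the 2 genotypes are apart in bone.

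Of the V1 sector, the ATP-hydrolyzing part, all 8 genes tested were higher in bone than in MC, by 0.56 to 2.34 on the log2 scale, and 7 of the 8 were higher than in condylar cartilage. Over all genes 25.9% were higher than in MC and 24.3% than in condylar cartilage. *Atp6v1e1*, a stalk subunit, was the exception against condylar cartilage, with a log2 difference of 0.35 ± 0.16 (SE) and an adjusted p of 0.0724 by limma. It held 29 to 47.8 normalized counts in bone, 24.7 to 34.3 in condylar cartilage and 4.59 to 10.3 in MC, the largest gap to MC of the V1 genes at 2.34 ± 0.22. *Atp6v1b2*, the ATP-binding B2 subunit, held 98 to 296 in bone, 22.1 to 69.7 in MC and 25.5 to 43.4 in condylar cartilage. Its log2 difference was 2.14 ± 0.16 against MC and 2.44 ± 0.15 against condylar cartilage. *Atp6v1f* differed least from MC among the V1 genes (0.56 ± 0.19), with 13.1 to 18.3 normalized counts in bone and 7.48 to 19.3 in MC, which overlapped. The accessory gene *Atp6ap2* was higher in bone than in both cartilages (1.37 ± 0.17 and 1.89 ± 0.17), and *Atp6ap1* was higher than in MC alone (0.78 ± 0.12), with 0.06 ± 0.12 against condylar cartilage.

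Among the 7 enzymes, 5 were higher in bone than in MC, and 5 were higher and 1 lower than in condylar cartilage. Of all genes 25.9% were higher than in MC, and 24.3% were higher and 22.5% lower than in condylar cartilage. *Ctsb*, a cysteine protease, held 145 to 249 normalized counts in bone and 129 to 222 in MC, which overlapped, and 53.8 to 79.2 in condylar cartilage. Its log2 difference was 0.21 ± 0.12 (SE) against MC, with an adjusted p of 0.14 by limma, and 1.69 ± 0.12 against condylar cartilage, with 4.08e-09. *Ctsd*, an aspartic protease, had another order, with 118 to 182 in bone, 57.1 to 145 in MC and 178 to 263 in condylar cartilage. Bone was above MC by 0.63 ± 0.17 and below condylar cartilage by -0.61 ± 0.16. *Ctsl* held 97.6 to 139 in bone, above all MC libraries (36.7 to 72.6) and all condylar libraries (42.1 to 56.2). *Hexa*, a subunit of the hexosaminidase that degrades gangliosides, was higher in bone by 1.77 ± 0.14 and 1.90 ± 0.13.

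Of the 3 sorting genes, 2 were higher in bone than in MC and all 3 than in condylar cartilage, beside 25.9% and 24.3% of all genes. *Gnptab* held 43.7 to 104 normalized counts in bone, 27.2 to 39.9 in MC and 39.7 to 59 in condylar cartilage, and bone was higher by 1.21 ± 0.15 (SE) and 0.61 ± 0.14 on the log2 scale. *M6pr* held 59.3 to 85 in bone, 26.4 to 42.5 in MC and 44.3 to 62.3 in condylar cartilage, with differences of 0.99 ± 0.14 and 0.42 ± 0.13. *Gnptg*, the gamma subunit of the phosphotransferase, held 8.77 to 10.9 in bone, 4.38 to 11.8 in MC and 4.57 to 7.82 in condylar cartilage. It passed against condylar cartilage (0.60 ± 0.20) but not against MC (0.43 ± 0.22).

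Of the membrane proteins, *Slc37a2*, a sugar phosphate transporter that osteoclasts carry on their secretory lysosomes, resembled *Atp6v0d2*. It held 32 to 126 normalized counts in bone, 4.54 to 17.3 in MC and 0.402 to 2.31 in condylar cartilage, with no overlap. Its log2 difference was 2.85 ± 0.24 (SE) against MC and 6.00 ± 0.36 against condylar cartilage, with adjusted p-values of 9.82e-08 and 8.02e-10 by limma.

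*Clcn7*, the chloride-proton exchanger of lysosomes, and *Ostm1*, its beta subunit, differed in their order. *Clcn7* held 13.2 to 34.6 in bone, 11.3 to 28.7 in MC and 7.05 to 16.3 in condylar cartilage, and bone was higher than condylar cartilage by 1.28 ± 0.18 but did not pass against MC (0.44 ± 0.18, adjusted p = 0.0509 by limma). *Ostm1* held 11 to 20.5 in bone, 0.383 to 9.35 in MC, where 1 library had 2 fragments, and 3.87 to 5.62 in condylar cartilage, and passed against both (1.98 ± 0.29 and 1.68 ± 0.23). *Lamp1* had the highest median FPKM of the members in each tissue, with both genotypes pooled. By group means *Atp6v0d2* and *Atp6v1b2* were above it in *Fgfr2*+/S252W bone (92.9 and 91.3 FPKM against 78.5) and *Ctsd* in *Fgfr2*+/+ condylar cartilage (101 against 99.7). *Lamp1* held 167 to 198 normalized counts in bone, 132 to 171 in MC and 202 to 261 in condylar cartilage, with differences of 0.28 ± 0.11 and -0.29 ± 0.11 that both passed, the first not without the MC library that stood apart (0.25 ± 0.12, adjusted p = 0.0756). *Lamp2*, its partner in the lysosomal membrane, held 184 to 229 in bone, 134 to 164 in MC and 125 to 176 in condylar cartilage, and bone was higher by 0.45 ± 0.12 and 0.49 ± 0.12.

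*Mcoln1*, a calcium channel of the lysosomal membrane, was the 1 tested member that passed as lower in bone than in MC with all libraries. It held 5.62 to 8.36 normalized counts in bone, 6.69 to 18.6 in MC and 5.49 to 13.2 in condylar cartilage. Bone was lower than MC by -0.98 ± 0.24 (SE) on the log2 scale, with an adjusted p of 0.00264 by limma, and did not pass against condylar cartilage (-0.27 ± 0.24). *Tfeb*, which encodes the factor that drives many lysosomal genes, had the lowest median FPKM of the members in each tissue with both genotypes pooled, at 0.133 (bone), 0.808 (MC) and 0.168 (condylar cartilage). In *Fgfr2*+/S252W condylar cartilage the mean of *Atp6v0d2* was lower (0.188 against 0.194). These were 5 to 45 fragments per library, too few for the filter. With edgeR's filterByExpr in its place *Tfeb* was tested, and it was lower than in MC in bone (-1.88 ± 0.51, adjusted p = 0.0055 by limma) and in condylar cartilage (-1.94 ± 0.53, adjusted p = 0.00478).

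The cartilages also differed from each other. Of the 35 members, 15 were higher and 7 lower in condylar cartilage than in MC, where 28.3% of all genes were higher and 28.7% lower. The largest decreases were those of *Atp6v0d2* (-3.79 ± 0.60 on the log2 scale, SE), *Slc37a2* (-3.15 ± 0.38) and *Tcirg1* (-1.87 ± 0.25), and the largest increases those of *Atp6v1e1* (1.98 ± 0.22) and *Atp6v0d1* (1.65 ± 0.13). Without the MC library that stood apart, 17 were higher and 24 differed in all, where 30.2% of all genes were higher and 58.4% differed. The decrease of *Atp6v0d2* was then -3.09 ± 0.39, *Atp6v0c*, *Ctsz* and *Naglu* also passed, and *Atp6ap2* no longer did. With all libraries, every tested macrophage and endothelial marker was lower in condylar cartilage than in MC. Every tested chondrocyte and osteoblast marker was higher, and the osteoclast markers tested all had negative differences. The part of these cells in the differences was not tested.

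The wider list of 78 lysosomal and V-ATPase genes that are not members had smaller median differences, 0.36 against MC and 0.24 against condylar cartilage on the log2 scale. Of the 68 tested, 30 were higher and 4 lower in bone than in MC, and 27 were higher and 17 lower than in condylar cartilage, beside the shares of all genes given above. Without the MC library that stood apart, 31 of 66 tested were higher and 3 lower in bone than in MC. Over all genes 28.1% were higher and 25.7% lower there. *Atp6v0a4*, the a4 isoform best known from kidney, held at most 0.0734 normalized counts in bone, 1.99 to 7.82 in condylar cartilage and 3.68 to 13.3 in 5 MC libraries. The MC library that stood apart held 0.186.

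The second question was how the genotypes differed in each tissue. In bone, members were mostly higher in *Fgfr2*+/S252W embryos, but few passed the test over all genes. In the fit of all 18 libraries, 2 of 35 members were higher at an adjusted p below 0.05 by limma and 0 were lower, where 0.0872% of 11469 genes passed, 0.0349% higher and 0.0523% lower. The 2 were *Gnptab* and *Slc37a2*. At an unadjusted p below 0.05, 18 members were higher and 0 lower, where 4.0% and 4.12% of all genes were. All 3 *Fgfr2*+/S252W libraries lay above all 3 *Fgfr2*+/+ libraries in 18 members and below them in 0, where 10.7% of all genes were above and 9.70% below. The median log2 difference of the members was 0.44, and that of all genes 0.00, and 29 of 35 were above 0, as were 49.9% of all genes.

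The count of passing members depended on the fit. With the 6 bone libraries alone, 6 members passed, all higher, where 0.609% of 12322 genes were higher and 0.536% lower. They were *Gnptab*, *Slc37a2*, *Tcirg1*, *Atp6v0d2*, *Atp6v1a* and *Atp6v1b2*. With edgeR's quasi-likelihood test on all libraries 0 members passed, and with DESeq2 1 did, beside 0.0349% and 0.157% of all genes. Leaving out any 1 of the *Fgfr2*+/S252W bone libraries, or *Fgfr2*+/+ bone library 1 or 2, also left 0 passing. Over all genes 0 to 0.0177% passed in these fits. In the fit of bone alone, 0 passed without *Fgfr2*+/S252W library 1 or 2 or *Fgfr2*+/+ library 1, beside 0.0830% to 0.108% of all genes. There were 5 without *Fgfr2*+/S252W library 3 and 1 without *Fgfr2*+/+ library 2, where 0.677% and 0.272% of all genes passed. Without *Fgfr2*+/+ library 3, 14 were higher and 1 lower, where 5.33% of all genes were higher and 6.10% lower.

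*Fgfr2*+/+ bone library 3 differed from the other *Fgfr2*+/+ bone libraries. The chi-square per gene was 90.6 and 85.9 between it and libraries 1 and 2, and 19.5 between those. Mitochondrial genes took 36% and 34.8% of the fragments in *Fgfr2*+/+ bone libraries 1 and 2, 20.4% in library 3 and 23.4 to 23.6% in *Fgfr2*+/S252W bone. The *Gm42418* share was 8.6 to 9.3% in *Fgfr2*+/+ and 5.6 to 6.5% in *Fgfr2*+/S252W bone, without overlap. The part of these shares in the result was not tested.

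**Figure D3:**
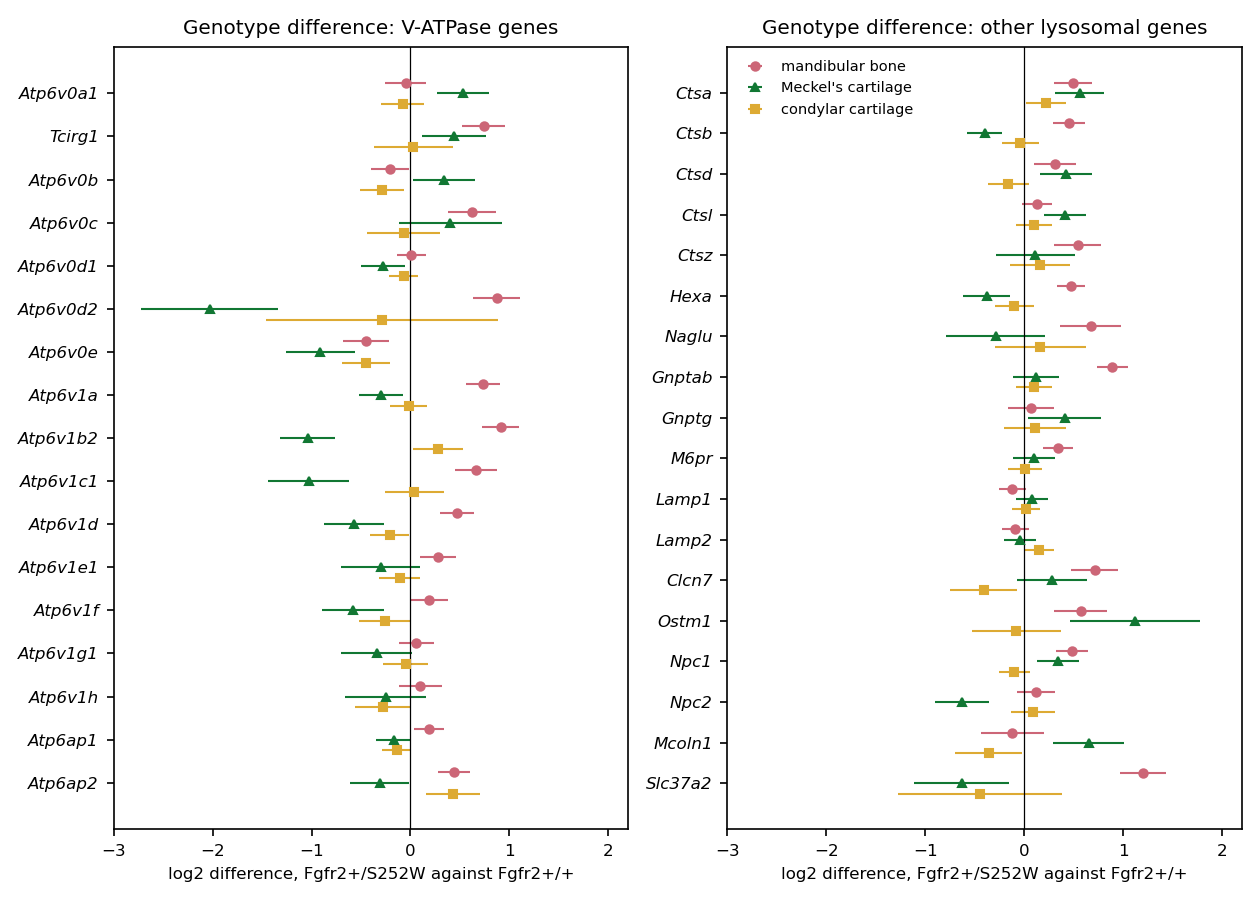
Log2 difference between *Fgfr2*+/S252W and *Fgfr2*+/+ embryos for the 35 tested members in each tissue (x axis, bars are the SE of the limma fit of 18 libraries, 3 embryos per group), with V-ATPase genes on the left and other lysosomal genes on the right. Bone lies to the right of 0 for 29 of 35 members, MC to the left for 19, and condylar cartilage stays between -0.45 and 0.43.

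*Gnptab*, the catalytic alpha and beta subunits of the phosphotransferase (chr10:88379132-88447329), held 43.7, 61.1 and 57.1 normalized counts in the *Fgfr2*+/+ bone libraries and 101.6, 103.8 and 91.7 in the *Fgfr2*+/S252W libraries. Every *Fgfr2*+/S252W value lay well above the highest *Fgfr2*+/+ value. The log2 difference was 0.89 ± 0.16 (SE), with an adjusted p of 0.0452 by limma and of 0.0178 in bone alone. *Slc37a2* (chr9:37229149-37255738) held 32.0, 54.9 and 62.4 in *Fgfr2*+/+ and 125.5, 115.7 and 92.3 in *Fgfr2*+/S252W bone, again without overlap. Its difference was 1.20 ± 0.23, the largest of any member, with adjusted p-values of 0.0483 and 0.0241.

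Of the 7 V0 genes, *Tcirg1*, *Atp6v0d2* and *Atp6v0c* were higher without overlap between genotypes, as were 10.7% of all genes. The lowest log2 differences of the members were those of *Atp6v0e* (-0.45 ± 0.23, SE) and *Atp6v0b* (-0.21 ± 0.19). Both overlapped between genotypes and neither passed. *Tcirg1* held 35.7, 47.0 and 52.3 normalized counts in *Fgfr2*+/+ bone and 84.1, 75.1 and 65.6 in *Fgfr2*+/S252W bone. The log2 difference was 0.74 ± 0.22 (SE), with an adjusted p of 0.287 by limma in all libraries and 0.0481 in bone alone. *Atp6v0d2* held 123.0, 148.5 and 140.7 against 281.3, 268.2 and 207.3, with a difference of 0.87 ± 0.24 and adjusted p-values of 0.23 and 0.0187.

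*Atp6v0c*, part of the proteolipid ring and not an isoform particular to osteoclasts, held 17.7, 31.0 and 31.3 normalized counts in *Fgfr2*+/+ bone and 45.5, 36.4 and 38.4 in *Fgfr2*+/S252W bone. Its log2 difference was 0.62 ± 0.24 (SE), with adjusted p-values of 0.501 by limma in all libraries and 0.172 in bone alone. *Atp6v0a1* held 23.4, 16.7 and 22.2 in *Fgfr2*+/+ bone and 19.4, 20.3 and 20.2 in *Fgfr2*+/S252W bone. *Atp6v0d1* held 57.2, 56.3 and 62.5 against 63.4, 59.7 and 55.0. For *Atp6v0a1* and *Atp6v0d1* the genotypes overlapped, and the log2 differences were -0.05 ± 0.21 (SE) and 0.01 ± 0.15, whose sign changed with the setting. The share of *Tcirg1* among a-subunit transcripts was 45.2% ± 2.7 (SD, n = 3) in *Fgfr2*+/+ and 57.1% ± 3.54 in *Fgfr2*+/S252W bone, and that of *Atp6v0d2* among d-subunit transcripts was 58.3% ± 2.58 and 71.7% ± 2. Neither overlapped, and both gave p = 0.1 by the exact two-sided permutation test, the smallest that 3 against 3 allows, and 0.15 after adjustment over 12 comparisons.

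Of the V1 genes, 8 of 8 had a positive difference, as did 49.9% of all genes, and 4 were higher at an unadjusted p below 0.05 (4.0% of all genes). *Atp6v1a*, the catalytic A subunit (chr16:44085402-44139705), held 183.1, 197.6 and 198.9 normalized counts in *Fgfr2*+/+ bone and 349.2, 330.8 and 283.9 in *Fgfr2*+/S252W bone, without overlap. Its log2 difference was 0.73 ± 0.17 (SE), with adjusted p-values of 0.112 by limma in all libraries and 0.0232 in bone alone. *Atp6v1b2* (chr8:69088646-69113711) held 98.0, 149.6 and 171.4 against 296.0, 262.9 and 214.8. The genotypes did not overlap, and the difference was 0.91 ± 0.19, with adjusted p-values of 0.0763 and 0.0481. At the other end, *Atp6v1g1*, *Atp6v1h* and *Atp6v1f* lay between 0.06 and 0.19.

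**Figure D4:**
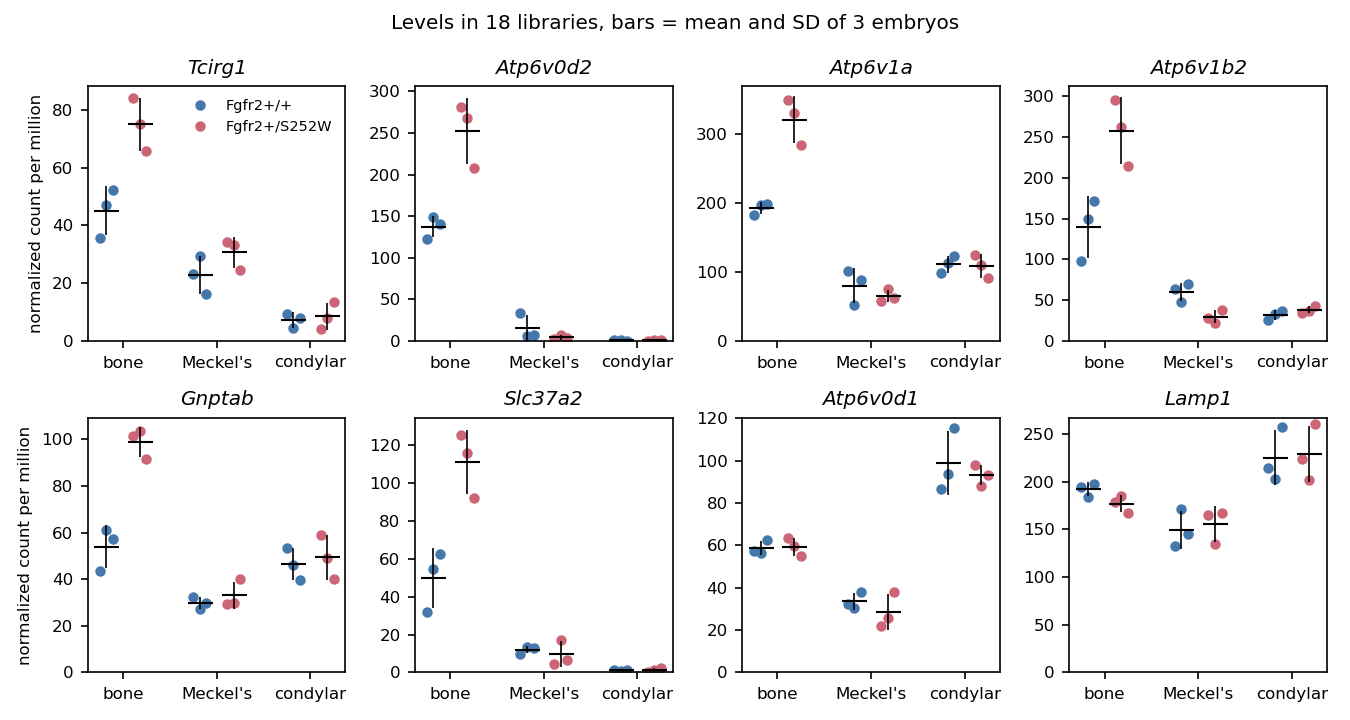
Normalized counts (CPM, y axis from 0) of 8 members in each of the 18 libraries, by tissue and genotype; black bars are the mean and SD of 3 embryos. In bone, *Tcirg1*, *Atp6v0d2*, *Atp6v1a*, *Atp6v1b2*, *Gnptab* and *Slc37a2* are higher in every *Fgfr2*+/S252W library, while *Atp6v0d1* and *Lamp1* overlap between genotypes.

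All 7 enzymes had a positive difference in bone, from 0.13 to 0.67 on the log2 scale, and 5 had an unadjusted p below 0.05, beside the same 49.9% and 4.0% of all genes. There was none with an adjusted p below 0.05 by limma. *Ctsb* held 145.3, 180.2 and 197.5 normalized counts in *Fgfr2*+/+ bone and 244.3, 248.7 and 217.5 in *Fgfr2*+/S252W bone, without overlap (0.45 ± 0.16, SE, adjusted p = 0.428). *Ctsd* held 132.3, 117.6 and 133.1 against 182.5, 155.3 and 138.9, also without overlap (0.31 ± 0.21, adjusted p = 0.781). *Ctsl* held 97.6, 113.3 and 121.0 against 139.0, 118.8 and 106.3 and overlapped (0.13 ± 0.15).

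The chloride exchanger and its partner leaned the same way. *Clcn7* held 13.2, 24.1 and 22.3 normalized counts in *Fgfr2*+/+ bone and 34.6, 31.3 and 28.9 in *Fgfr2*+/S252W bone (0.71 ± 0.24 on the log2 scale, SE, adjusted p = 0.404 by limma). *Ostm1* held 15.7, 11.4 and 11 against 20.5, 19.4 and 15.8 (0.57 ± 0.27, adjusted p = 0.618). Both were without overlap, by a narrow gap in *Ostm1*. *M6pr* held 59.3, 70.1 and 62.3 against 85.0, 84.0 and 73.0, without overlap (0.34 ± 0.15, adjusted p = 0.593).

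*Gnptg*, the partner of *Gnptab*, held 8.77, 9.98 and 9.82 normalized counts in *Fgfr2*+/+ bone and 10.9, 9.22 and 10.0 in *Fgfr2*+/S252W bone, and overlapped (0.07 ± 0.23 on the log2 scale, SE). *Lamp1* held 194.3, 183.5 and 197.9 against 178.7, 185.2 and 166.9 (-0.12 ± 0.14). *Tfeb* held 2.21, 0.44 and 0.565 against 0.819, 1.33 and 0.535, and overlapped. It was tested only with filterByExpr, where the log2 difference was 0.05 ± 0.74 (adjusted p = 0.998 by limma).

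Osteoclast markers moved with these genes. In bone 0 of the 11 markers were at 0 in any library. Their summed level was 992 to 1314 normalized counts in the 3 *Fgfr2*+/+ and 1872 to 2564 in the 3 *Fgfr2*+/S252W bone libraries. Of the 7 markers tested in all libraries, 7 were higher at an unadjusted p below 0.05, as were 4.0% of all genes. After adjustment 0 passed, where 0.0349% of all genes were higher. In the fit of bone alone, 10 of 11 passed by limma, by 0.72 to 1.39 on the log2 scale. Over all genes 0.609% were higher there. From this bone the study had already reported *Acp5*, *Calcr*, *Ctsk*, *Itgb3*, *Oscar* and *Tnfrsf11a* as higher, so their direction was known beforehand. The summed V-ATPase level was 981 to 1153 in *Fgfr2*+/+ and 1323 to 1691 in *Fgfr2*+/S252W bone.

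Relative to the osteoclast marker sum, a ratio chosen after the values were seen, several members overlapped between genotypes. Per 100 normalized counts of the marker sum, *Atp6v0d2* held 11.6 ± 0.854 (SD, n = 3) in *Fgfr2*+/+ and 11.2 ± 0.284 in *Fgfr2*+/S252W bone, *Gnptab* 4.52 ± 0.261 and 4.44 ± 0.469, and *Atp6v1b2* 11.6 ± 1.6 and 11.4 ± 0.138. *Tcirg1* was lower on this scale (3.76 ± 0.196 against 3.33 ± 0.148), *Slc37a2* higher (4.1 ± 0.787 against 4.93 ± 0.0345), and the V-ATPase sum lower (91.2 ± 7.69 against 68.3 ± 2.36), each without overlap. *Atp6v0d1* (4.99 ± 0.692 against 2.66 ± 0.247) and *Lamp1* (16.4 ± 2.8 against 7.94 ± 0.973) were lower without overlap too, and *Atp6v1a* (16.4 ± 1.8 against 14.3 ± 0.782) overlapped. The levels of *Atp6v0d1* and *Lamp1* overlapped between genotypes, so their lower ratios follow from the higher marker sum. *Tcirg1* and the V-ATPase sum were themselves higher in *Fgfr2*+/S252W bone, but by less than the marker sum. By tartrate-resistant acid phosphatase staining of sections at E16.5, the study counted more osteoclasts per bone area in *Fgfr2*+/S252W mandibles. In these libraries more osteoclasts in the captured area and more RNA of the members per osteoclast cannot be told apart. The summed muscle markers also differed, with 774 and 719 in *Fgfr2*+/+ bone libraries 1 and 2, 135 in library 3 and 57.0 to 136 in *Fgfr2*+/S252W bone. Likewise, summed erythroid markers were 1281 to 1528 against 323 to 614. Summed macrophage markers were 170 to 197 in *Fgfr2*+/+ and 224 to 284 in *Fgfr2*+/S252W bone, and of the 5 tested 2 were higher and 2 lower at an unadjusted p below 0.05. The part of these cells in the result was not tested.

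**Figure D5:**
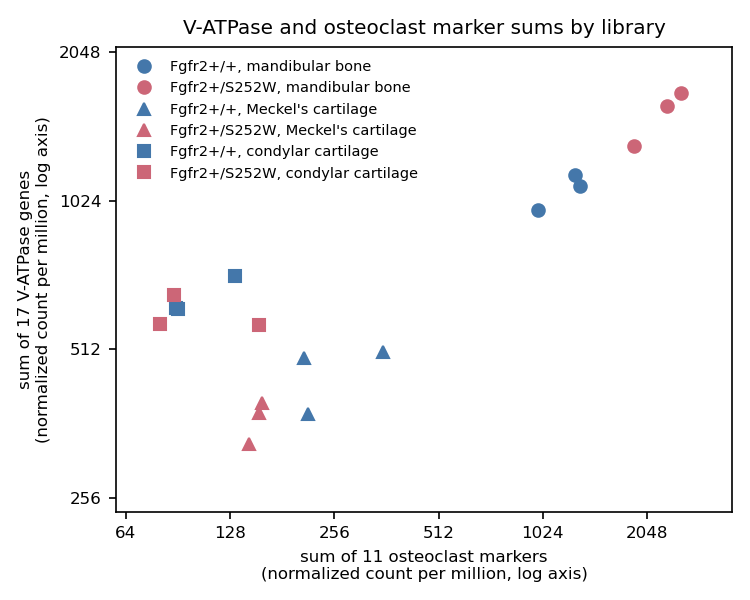
Summed level of the 17 V-ATPase genes (y axis) against the summed level of 11 osteoclast markers (x axis) in each of the 18 libraries, both in normalized counts (CPM) on log axes. The bone libraries lie at the upper right, with *Fgfr2*+/S252W (1872 to 2564 on the x axis) beyond *Fgfr2*+/+ (992 to 1314), while condylar libraries hold more V-ATPase RNA (574 to 720) than MC libraries (329 to 507) at marker sums of 80.1 to 155, which overlap the 145 to 353 of MC.

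In MC, 0 of 35 members passed by limma, as did 0 of 11469 genes, and 0 members passed without the library that stood apart. At an unadjusted p below 0.05, 1 member was higher and 6 were lower in *Fgfr2*+/S252W embryos, where 8.10% of all genes were higher and 7.25% lower. Genotypes were without overlap in 1 member that was higher and 4 that were lower, against 6.71% and 6.67% of all genes. The median was -0.30 on the log2 scale over the V-ATPase genes, of which 4 of 17 were above 0, where 52.1% of all genes were. It was 0.11 over the other members. Without the library that stood apart, 1 member was higher and 5 were lower at an unadjusted p below 0.05 (6.77% and 6.46% of all genes). Genotypes were then without overlap in 4 members that were higher and 5 that were lower (13.5% and 11.8%), and 5 of 17 V-ATPase genes were above 0, with a median of -0.25. *Atp6v1b2* held 63.5, 48.2 and 69.7 normalized counts in *Fgfr2*+/+ and 28.5, 22.1 and 38.3 in *Fgfr2*+/S252W MC, without overlap, with a log2 difference of -1.04 ± 0.28 (SE) and an adjusted p of 0.11. EdgeR called it lower, as did DESeq2, which also called *Atp6v0e* lower.

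*Atp6v0d2* held 33.6, 5.93 and 6.56 normalized counts in *Fgfr2*+/+ MC and 1.74, 7.43 and 3.33 in *Fgfr2*+/S252W MC. Its log2 difference of -2.03 ± 0.69 (SE, adjusted p = 0.186 by limma) rested on genotypes that overlapped, and its highest value was in the library that stood apart. Without that library it was -0.92 ± 0.57. *Slc37a2* held 9.76, 13.2 and 13.1 against 4.54, 17.3 and 6.65 and overlapped. *Tcirg1* held 23.0, 29.5 and 16.3 against 34.1, 33.3 and 24.5 (0.44 ± 0.32). *Gnptab* held 32.4, 27.2 and 29.8 against 29.4, 30.0 and 39.9 (0.12 ± 0.23). The osteoclast marker sum was 353, 215 and 209 in *Fgfr2*+/+ and 145, 158 and 155 in *Fgfr2*+/S252W MC. Summed macrophage markers differed the other way without overlap, with 40.7 to 87.8 in *Fgfr2*+/+ and 106 to 156 in *Fgfr2*+/S252W MC, and 4 of the 5 tested were higher at an unadjusted p below 0.05. The part of these cells in the result was not tested.

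The difference of the genotype effect between bone and MC was tested directly. It passed in 1 member, *Atp6v1b2*, by 1.95 ± 0.34 (SE) on the log2 scale with an adjusted p of 0.0292 by limma, where 0.0523% of all genes passed. The gene was higher in *Fgfr2*+/S252W bone and lower in *Fgfr2*+/S252W MC. It passed in 0 members without *Fgfr2*+/S252W bone library 1 or 2, any 1 of the *Fgfr2*+/S252W MC libraries, *Fgfr2*+/+ bone library 1 or 2, or *Fgfr2*+/+ MC library 1, which stood apart, or 3. Over all genes 0 to 0.0528% passed in these fits. The size for *Atp6v1b2* changed less, from 1.71 to 2.15 with any 1 library left out, and was 1.89 ± 0.37 (adjusted p = 0.102 by limma) without the library that stood apart. The difference passed in 2 members without *Fgfr2*+/+ MC library 2, where 0.238% of all genes passed. It passed in 0 in the fit of bone and MC alone, where 0.0419% did. At an unadjusted p below 0.05, 12 members had a more positive effect in bone and 0 in MC, where 5.11% and 5.79% of all genes did. This test uses the same libraries as the bone and MC results above.

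In condylar cartilage, 0 of 35 members passed by limma and 0 had an unadjusted p below 0.05, where 3.06% of all genes did. Genotypes were without overlap in 1 member that was higher, *Atp6ap2*, and 1 that was lower, *Atp6v1f*, against 4.59% and 5.17% of all genes. Differences lay between -0.45 and 0.43 on the log2 scale, with a median of -0.07 and a median SE of 0.22. *Tcirg1* held 9.47, 4.32 and 7.94 normalized counts in *Fgfr2*+/+ and 4.28, 7.91 and 13.5 in *Fgfr2*+/S252W condylar cartilage, and *Gnptab* 53.5, 45.9 and 39.7 against 59.1, 49.2 and 39.9. Both overlapped. *Atp6v0d2* and *Slc37a2* had at most 12 and 19 fragments per library here, and their log2 differences of -0.29 ± 1.17 and -0.45 ± 0.83 had wide errors. The effect in bone did not differ from that in condylar cartilage in any member after adjustment by limma, with 6 members at an unadjusted p below 0.05, all more positive in bone (1.31% of all genes). Between the cartilages 0 passed by limma and 2 had an unadjusted p below 0.05, both more positive in condylar cartilage (4.56% of all genes), and DESeq2 called *Atp6v1b2*. Without the MC library that stood apart 0 also passed, and 1 member was more positive in each cartilage at an unadjusted p below 0.05 (4.08% of all genes in condylar cartilage and 4.92% in MC).

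Of the 78 other lysosomal genes, 0 of 68 tested passed in bone in the fit of all libraries, with 7 higher and 1 lower at an unadjusted p below 0.05, where 4.0% and 4.12% of all genes were. With bone libraries alone, where 0.609% of all genes were higher and 0.536% lower, *Arsb*, a sulfatase that acts on dermatan sulfate, was higher by 0.97 ± 0.18 (SE, adjusted p = 0.0311 by limma). *Ctss*, a cysteine protease of macrophages and other antigen-presenting cells, was lower by -1.17 ± 0.26 (adjusted p = 0.0499).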

How the data were processed

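RNA of 18 laser-captured samples was amplified for paired-end sequencing. STAR alignments to mm10 were counted by the authors per Ensembl gene with featureCounts 1.5.0-p1. The deposited values are raw counts, summed without regard to strand, so overlapping or antisense genes cannot be told apart. Each group held 3 embryos. That a replicate number stands for 1 embryo across tissues was inferred from the labels.

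Following the study's methods, a gene was tested if its FPKM exceeded 1 in 50% of the libraries or more. TMM factors, voom and limma 3.58.1 (R 4.3.3) with 6 group means were used for genotype, and the embryo was a block for tissue. Calls were made at a Benjamini-Hochberg adjusted p below 0.05 over all genes tested. Alternatives were edgeR 4.0.16, DESeq2 1.42.0, other filters, scaling and weights, and left-out libraries. The fits were tested on simulated counts. Totals of 8218548 to 15585778 fragments limit the precision of low genes.

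The members and lists were chosen with earlier results of these data known. Described by library are members called in a genotype comparison or interaction, the 3 largest and 3 smallest called differences between bone and each cartilage, and a preset group of pump, sorting, enzyme and membrane genes. The result of 1 gene of the wider lysosomal list is not reported here.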

Additional observations from a re-analysis of the deposited data

Results flagged for a closer look

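*Atp6v1b2*, the B2 subunit of the V1 sector, differed between bone and MC in the effect of the S252W allele, by 1.95 on the log2 scale in the interaction term of limma (adjusted p = 0.0292). It was above every *Fgfr2*+/+ library in all 3 *Fgfr2*+/S252W bone libraries and below every one in all 3 *Fgfr2*+/S252W MC libraries. EdgeR also called it, as did DESeq2, but the limma call was lost without any 1 of 9 of the bone and MC libraries.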

How the results depend on the processing

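Over all alternatives 27 to 32 members differed between bone and MC, 21 to 31 between bone and condylar cartilage and 19 to 24 between the cartilages, beside 35.0 to 53.9%, 30.1 to 48.9% and 43.8 to 58.4% of all genes. The genotype count in bone was 2 and became 6 with bone libraries alone, 0 with edgeR, 1 with DESeq2, 5 with no filter, 13 with sample quality weights, and 0 to 3 with 1 library left out. Of all genes 0.0872% passed at first and 1.14%, 0.0349%, 0.157%, 0.205% and 5.14% in the named settings, and 0 to 0.811% with 1 library left out. With bone libraries alone it was 6, and 0 to 15 with 1 library left out, beside 0.0830% to 11.4% of all genes. In MC it was 0, 1 with edgeR and 2 with DESeq2, beside 0.785% and 3.69% of all genes. The interaction of bone and MC was 1, and became 0 with only those tissues, 2 with DESeq2, 0 with no filter and 0 to 2 with 1 library left out. Of all genes 0.0523% passed at first, then 0.0419%, 0.820%, 0.0619% and 0 to 0.238%. That of the cartilages was 0, and 1 with DESeq2, where 0.837% of all genes passed. With the replicate number as a block, the bone count was 0, the interaction of bone and MC 0, and bone alone 8. Over all genes these shares were 0.0610%, 0.00872% and 4.50%. Libraries of 1 embryo hardly deviated together across tissues, with correlations from -0.0863 to 0.105 and a consensus of -0.0247, and without the embryo block 30, 31 and 22 members differed in the tissue comparisons, beside 51.0%, 48.9% and 56.2% of all genes. The numbers were not taken as pairs between genotypes, since correlations of equal numbers ran from -0.152 to 0.277. *Atp6v0a1* in bone changed sign with no filter (0.02) and ranged from -0.19 to 0.04 with 1 library left out, and *Atp6v0d1* from -0.03 to 0.07. The *Atp6v0d2* share difference of bone and condylar cartilage was 74.8 points by raw fragments, not divided by length. The cause was not tested for the other changes. Leaving genes unfiltered moved the median of all genes to 0.15 in MC. Low counts limit *Tfeb*, *Ostm1* in MC, and *Atp6v0d2* and *Slc37a2* in condylar cartilage.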
